A study of Rattus norvegicus with 12 samples.

Results

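The genes described here are those that separated 2 rat cultures with almost the same expression profile: the arrays labelled DAC8, an embryonic stem (ES) cell line, and the arrays labelled REF1, a culture of embryonic fibroblasts. They were chosen from the same values: a gene was listed where the mean of the 2 DAC8 arrays and the mean of the 2 REF1 arrays differed by at least 2-fold (1 log2 unit) and the higher mean was at 5 or above on the deposited log2 scale. Of 14218 genes measured, 9825 reached 5 in either mean and 164 were listed, 76 higher and 88 lower in DAC8. Each gene was read from 1 probe set, the one with the highest mean over all 12 arrays. Because the differences chose the genes, they are given as a description, with no test.

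The series measured 6 lines or cultures on single-colour Affymetrix arrays, with 2 arrays each. DAC8 and DAC2 are labelled as ES lines that carry the surface antigen SSEA-1 and the proteins Oct4, Nanog and Sox2, were grown in 2i medium and were taken 5 days after passage; their strain is not given. REF1 and REF2 are labelled as embryonic fibroblasts of the FHH rat strain, prepared from e14.5 embryos, grown in MEF medium and taken 6 days after passage. A1 and A2 are induced pluripotent stem cell lines of the FHH strain, also labelled positive for the same markers and taken 5 days after passage in 2i medium. Strain, medium and days after passage therefore differ, or may differ, together with the DAC8 and REF1 labels and cannot be told apart. The labels do not say how many embryos made a fibroblast culture, whether mouse feeder cells lay under the ES lines, or whether separate cultures were used for the 2 arrays of each. The spread within a line, and with it every p-value below, may therefore be technical. Pou5f1 and Nanog, the genes of Oct4 and Nanog, were not analysed here.

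The label of DAC8 went against its values. Of 24 fibroblast markers, 22 were at 5 or above in DAC8 and 23 in REF1. Periostin (Postn), a matrix protein of fibroblasts, measured 13.64 and 13.58 in the DAC8 arrays, against 13.71 and 13.76 in the REF1 arrays, and the surface marker Thy1 measured 9.80 and 9.73 in DAC8, against 9.71 and 9.82 in REF1. The naive pluripotency factor Esrrb and the epithelial adhesion gene Epcam lay below 5 in all 4 of these arrays. The arrays labelled REF2 also went against their label: the median level of the pluripotent cell markers was 9.7 there and 9.9 in DAC2, against 4.8 in DAC8 and 4.8 in REF1. The same median was 5.0 in A1 and 5.2 in A2, although both are labelled as induced pluripotent lines. No array was moved to another group, and the labels are used below as names only. Array medians were 5.28 to 5.41. Beta-actin, whose 3′ signal exceeds its 5′ signal more as RNA degrades, had a 3′ minus 5′ difference of 0.52 and 0.45 in DAC8 and 0.48 and 0.42 in REF1, against 0.84 to 1.05 in the other 8 arrays (log2).

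Embryonic fibroblasts are a mixed population of mesenchymal cells that lay down collagen, elastin and proteoglycan matrix. They keep a memory of body position in their Hox genes, and under suitable culture conditions some become contractile myofibroblasts that carry smooth muscle proteins. Imprinted genes, which are read from only the maternal or only the paternal copy, are active in such embryonic mesenchyme, and several of them control growth. In RNA from whole cultures, fewer cells of a type and less RNA per cell cannot be told apart.

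The listed genes were a small share of all genes. At least 2-fold higher in DAC8 were 76 of 9825 genes (0.774%) and at least 2-fold lower were 88 (0.896%), 1.67% together, and 7556 genes (76.9%) differed by less than 1.2-fold. Correlations between single DAC8 and single REF1 arrays averaged 0.987 across the 11001 genes with a line mean of at least 5. Genes are not independent replicates. By the same rule 421 genes separated DAC2 from REF2, 21 separated A1 from A2 and 4351 separated DAC8 from DAC2, so DAC8 and REF1 were nearer than any pair other than A1 and A2. Between the 2 arrays of 1 line, 6 genes differed 2-fold in DAC8 and 2 in REF1. All 164 listed genes had both DAC8 arrays on the same side of both REF1 arrays, but so had 62.9% of all 9825 genes (34.0% above and 28.9% below), so this separation is no mark of the list. The median of the listed differences was 1.21 on the higher side and -1.33 on the lower side, and the median of all 9825 genes was 0.01. In limma's fit of all lines, 2174 of 11001 genes (19.8%) differed between DAC8 and REF1 at an adjusted p under 0.05, a count given only as background. It was 1246 without DAC8 replicate 1, 1378 without DAC8 replicate 2 and 1323 without REF1 replicate 2.

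**Figure D1:**
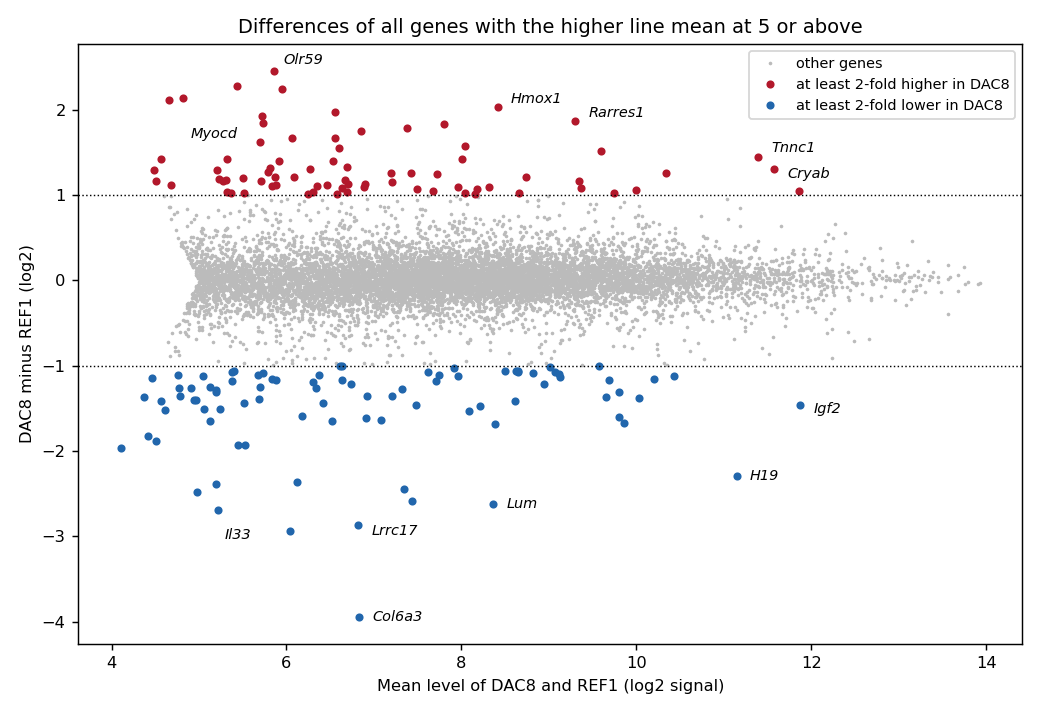
Difference between the DAC8 and REF1 means (log2, vertical axis) against the mean level of both (log2 signal, horizontal axis) for the 9825 genes with the higher mean at 5 or above. Red points are the 76 genes at least 2-fold higher in DAC8 and blue points the 88 at least 2-fold lower; dotted lines mark 2-fold, and most genes lie near 0.

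A signal of 5 was taken as the lowest level to be read, and lower ones were treated as not shown to exceed background; the background itself was not measured. Of the listed genes, 56 higher and 55 lower ones were at 5 or above in both means, while 20 and 33 had the lower mean below 5. The difference of those 53 is at best a lower bound, and no order is read among them. A difference of 4-fold or more was found for 17 genes, 6 higher and 11 lower. Nearest the threshold, Epha3 (-1.0), Ang (-1.01) and Srpx2 (-1.01) lay just inside, although Epha3 was at -0.68 with the mean of its probe sets, and Smoc2 (-1.0 after rounding), Klhdc8a (1.0 after rounding) and Pinlyp (0.99) just outside.

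Collagen VI marked the lower side. Its 3 main chains, which assemble into 1 microfibril around cells, were all listed. The alpha 3 chain gene Col6a3 measured 5.10 and 4.62 in DAC8, against 8.82 and 8.78 in REF1, a difference of -3.94. With the DAC8 mean below 5 it is a lower bound, and a second, dim probe set of Col6a3 (below 5 in both lines) differed by -0.34; the mean of both probe sets gave -2.14. Col6a1 measured 8.90 and 9.11 in DAC8, against 10.64 and 10.57 in REF1, a difference of -1.60. Col6a2 measured 7.52 and 7.42 in DAC8, against 8.93 and 8.96 in REF1, a difference of -1.47. A second probe set of Col6a2 went the same way but stayed under 2-fold. For all 3 genes both DAC8 arrays lay below both REF1 arrays, as for every gene listed as lower and for 28.9% of all genes. Col6a1 and Col6a2 are close neighbours in the GRCr8 gene annotation, with 2 annotated genes between them.

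Of the other collagen chains 1 was listed as lower. This was Col5a3, a minor chain of the fibril-forming collagen V, which measured 6.38 and 5.91 in DAC8, against 8.68 and 8.78 in REF1, a difference of -2.58. The major fibrillar chain gene Col1a1 measured 12.18 and 12.47 in DAC8, against 13.04 and 12.97 in REF1, a difference of -0.68 that was not listed, and Col3a1 differed by -0.29. Col19a1, a minor collagen found at basement membranes, was the only collagen on the higher side, at 1.30, with REF1 below 5, and was not listed without REF1 replicate 1. Of 26 collagen chain genes at 5 or above in either line, 4 were listed as lower and 1 as higher, against 0.896% and 0.774% of all genes. The median difference of the 26 was -0.42, against 0.01 over all genes.

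Matrix glycoproteins and proteoglycans at 5 or above numbered 61, with a median of -0.15. They gave 11 listed genes on the lower side and 1 on the higher side, against 0.896% and 0.774% of all genes. Lumican (Lum), a small leucine-rich proteoglycan that controls collagen fibril width, measured 7.08 and 7.02 in DAC8, against 9.53 and 9.82 in REF1, a 6.15-fold difference. Thrombospondin 2 (Thbs2), a matricellular glycoprotein, measured 7.56 and 7.53 in DAC8, against 9.26 and 9.19 in REF1. Elastin (Eln), the core of elastic fibres, measured 5.68 and 5.71 in DAC8, against 7.35 and 7.33 in REF1. A second, dimmer probe set of Eln differed by -0.86, under 2-fold, and the mean of both gave -1.26. For Lum, Thbs2 and Eln the 2 arrays of a line were close together. The lines did not overlap, which holds for every listed gene. Reelin (Reln), a secreted glycoprotein best known from neuronal migration, measured 6.40 and 5.85 in DAC8, against 8.62 and 8.52 in REF1. The others on the lower side were Thbs4, Gpc3, Tgfbi, Acan, Fbln2, Mgp and Aspn, between -1.92 and -1.10, and the 1 on the higher side was Spon2, at 1.07, which was not listed without REF1 replicate 2. Fibronectin (Fn1), the main adhesive glycoprotein, differed by -0.05, and Postn by -0.13.

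Enzymes and inhibitors that remodel the matrix had a median of -0.24. Out of 48, 4 were listed as lower (0.896% over all genes) and 0 as higher (0.774%). These were Adamts19 (-1.65), Fap (-1.51), PCOLCE2 (-1.40) and Adamts15 (-1.14), all with DAC8 below 5. The count was 7 without REF1 replicate 2 and 0 where the higher mean had to reach 6, and without REF1 replicate 1 a gene was listed as higher. Fap, the fibroblast activation protease, measured 4.19 and 4.41 in DAC8, against 5.86 and 5.76 in REF1. Outside these lists, Cthrc1, a secreted collagen triple helix repeat protein, measured 8.90 and 9.15 in DAC8, against 10.76 and 10.63 in REF1. Lrrc17, a secreted leucine-rich repeat protein, measured 5.49 and 5.29 in DAC8, against 8.29 and 8.21 in REF1, the largest lower difference with both means at 5 or above (-2.86). Against 0.896% of all genes, 4 of 23 fibroblast markers were listed as lower (Lum, Col6a1, Fap and Fbln2) and 0 as higher. All 4 were already counted in the collagen, matrix and remodelling lists, so the marker count is not separate from theirs. Their summed log2 levels were 250.3 to 250.5 in DAC8 and 260.5 to 260.9 in REF1. The part of such a shift in the matrix differences was not tested.

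**Figure D2:**
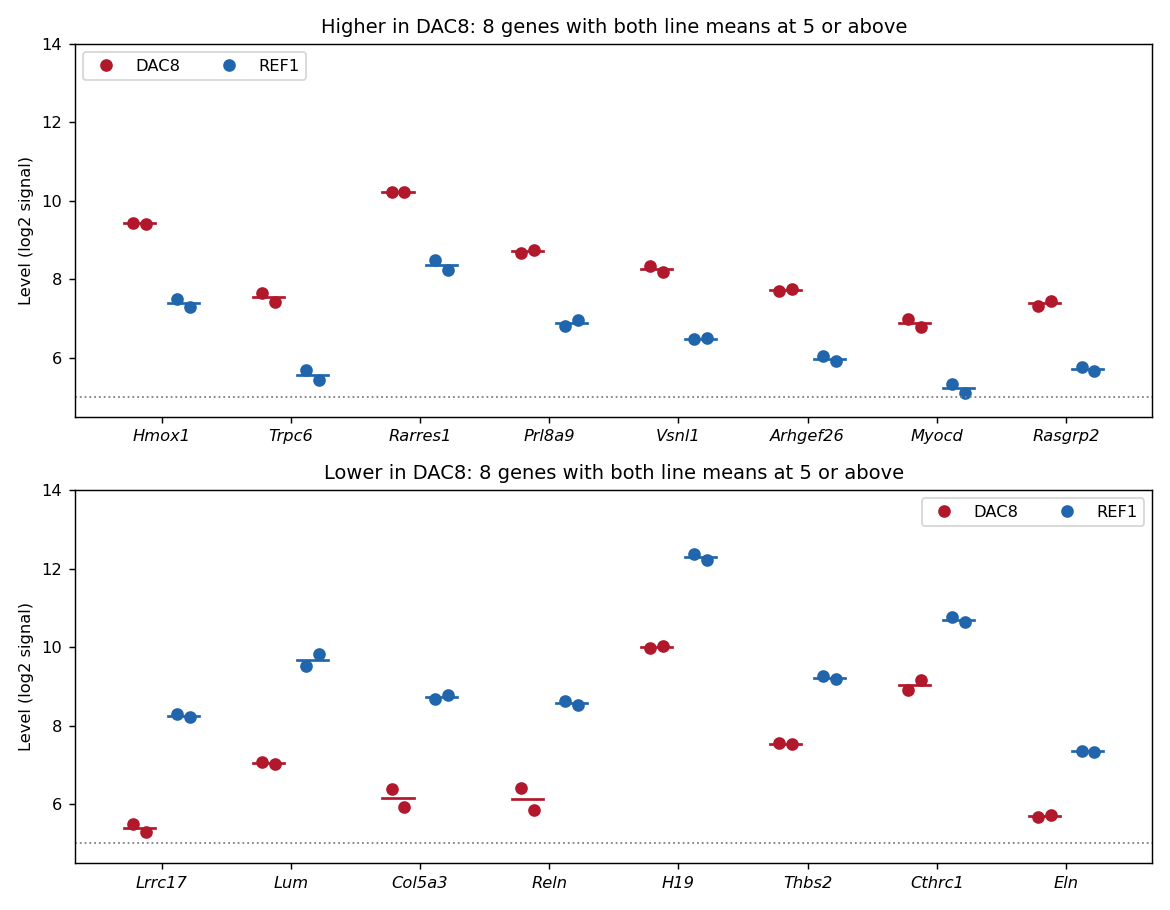
Log2 signal of single arrays for the 8 genes with the largest differences in each direction whose 2 means are both at 5 or above; points are arrays (2 of DAC8 in red, 2 of REF1 in blue), short lines are line means and the dotted line marks 5. In none of the 16 genes do the lines overlap, which holds for all 164 listed genes. Col5a3 and Reln have the widest gaps between the 2 DAC8 arrays.

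Cartilage, bone and tendon genes gave 2 on the lower side and 0 on the higher side of 11, with a median of -0.61. Over all genes 0.896% were listed as lower and 0.774% as higher. Aggrecan (Acan), the large cartilage proteoglycan, measured 7.25 and 6.98 in DAC8, against 8.16 and 8.44 in REF1, and Thbs4, a matricellular protein of tendon, was below 5 in DAC8. Both are also among the matrix glycoproteins and proteoglycans listed as lower, so the 2 counts share them. Of the 11 genes 10 were below 0, and the only 1 above 0, the tendon factor Scx, differed by 0.23 and was not listed.

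Secreted regulators of Wnt signalling were listed on the lower side only. Wnt proteins act through Frizzled receptors, and Wif1, Sfrp2 and Frzb bind Wnt proteins outside the cell. Wif1 measured 3.76 and 3.98 in DAC8, against 6.51 and 6.61 in REF1. Sfrp2 averaged 4.93 ± 0.20 in DAC8 and 7.30 ± 0.15 in REF1 (SD, n = 2 each), and Frzb measured 4.33 and 4.64 in DAC8, against 6.06 and 5.92 in REF1. All 3 had a DAC8 mean below 5, so no size is read beyond a lower bound. The ligand gene Wnt16 measured 5.94 and 6.26 in DAC8, against 7.90 and 7.52 in REF1. These 4 were the listed genes among 37 of the pathway, with 0 on the higher side and a median of -0.13. The share listed as lower over all genes was 0.896%. The Wnt target Axin2 differed by -0.22 and the receptor genes Fzd1 and Fzd2 by -0.39 and -0.64, none of them listed.

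Imprinted genes held 5 listed as lower (0.896% over all genes) and 0 as higher (0.774%) out of 19, although their median difference was 0.04. H19, a maternally expressed long non-coding RNA, measured 9.97 and 10.03 in DAC8, against 12.37 and 12.22 in REF1. Igf2, the paternally expressed growth factor gene next to it with 1 annotated gene between, measured 11.16 and 11.13 in DAC8, against 12.65 and 12.56 in REF1. The 3 dimmer probe sets of Igf2, at 5.05 or lower in both lines, differed by 0.02, -0.21 and 0.12, and with the mean of all its probe sets the difference was -0.38. H19 and Igf2 were thus both lower in DAC8, H19 by 4.91-fold and Igf2 by 2.75-fold on the brightest probe set. Mest, a paternally expressed gene of embryonic mesoderm, averaged 8.97 ± 0.04 in DAC8 and 10.34 ± 0.05 in REF1 (SD, n = 2 each). Cdkn1c, a maternally expressed inhibitor of cyclin-dependent kinases, measured 6.06 and 6.21 in DAC8, against 7.40 and 7.29 in REF1. Dlk1, a paternally expressed transmembrane regulator of adipogenesis, measured 6.01 and 6.08 in DAC8, against 7.14 and 7.28 in REF1. The listed genes therefore include both maternally and paternally expressed ones. Meg3 (-0.96), from the same imprinted domain as Dlk1, and Nnat (0.92) came close to 2-fold on opposite sides, and Gnas, Ndn, Plagl1, Slc38a4 and Igf2r lay between -0.03 and 0.16.

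Most of the 68 skeletal and cardiac muscle genes measured, 49, were below 5 in both means. Of the 19 at 5 or above in either mean, 4 were listed as higher (0.774% over all genes) and 0 as lower (0.896%). Of the 19, 12 were above 0 and 7 below, with a median of 0.28. The thin filament calcium sensor Tnnc1 measured 12.06 and 12.18 in DAC8, against 10.77 and 10.57 in REF1. Phospholamban (Pln), which restrains the calcium pump of the sarcoplasmic reticulum, measured 8.71 and 8.95 in DAC8, against 7.54 and 6.96 in REF1; 1 of its 2 other probe sets went the same way, and the mean of all 3 gave 0.91. Klhl41, a sarcomere-associated protein, measured 7.29 and 7.25 in DAC8, against 6.27 and 6.00 in REF1. The fast myosin heavy chain gene Myh2 measured 5.48 and 5.95 in DAC8 and lay below 5 in both REF1 arrays. DAC8 was above REF1 in every array for these 4 genes, as for every gene listed as higher and for 34.0% of all genes. The skeletal actin gene Acta1 (0.77), Casq2 (0.70) and the muscle transcription factor Mef2c (0.98) stayed under 2-fold, and Des, the muscle intermediate filament, differed by -0.03.

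Myocardin (Myocd), a coactivator of serum response factor that drives smooth and cardiac muscle genes, averaged 6.89 ± 0.15 in DAC8 and 5.22 ± 0.16 in REF1 (SD, n = 2 each). Alpha B-crystallin (Cryab), a small heat shock protein abundant in muscle, measured 12.25 and 12.20 in DAC8, against 11.02 and 10.83 in REF1. They were the 2 listed genes of 32 in the smooth muscle and contractile list, with 0 lower and a median of 0.20. The share listed as higher over all genes was 0.774%. The smooth muscle actin gene Acta2 measured 11.38 and 11.49 in DAC8, against 11.05 and 11.05 in REF1, a difference of 0.39. Tagln (0.46), Actg2 (0.63) and Cnn1 (0.24) were also under 2-fold. Further muscle-associated genes outside these lists were Smpx, at 6.58 ± 0.06 in DAC8 against 4.30 ± 0.42 in REF1 (SD, n = 2 each), Itgb1bp2 (melusin), at 6.50 and 6.51 in DAC8 against 4.92 and 4.84 in REF1, and the heart fatty acid binding protein gene Fabp3, at 12.38 and 12.37 in DAC8 against 11.35 and 11.32 in REF1. Smpx and Itgb1bp2 were below 5 in REF1. The formin gene Fhod3, also muscle-associated and outside these lists, was listed as lower. It measured 3.88 and 3.84 in DAC8, below 5, against 5.34 and 5.21 in REF1. The CArG box is the DNA motif that serum response factor binds. It was searched for 8 of these muscle genes, without Fabp3 and Fhod3, on both strands from 250 bases before to 50 after the start. It was found in 0 of the 5 genes with a RefSeq promoter and in 1.64% of all 33469 promoters.

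**Figure D3:**
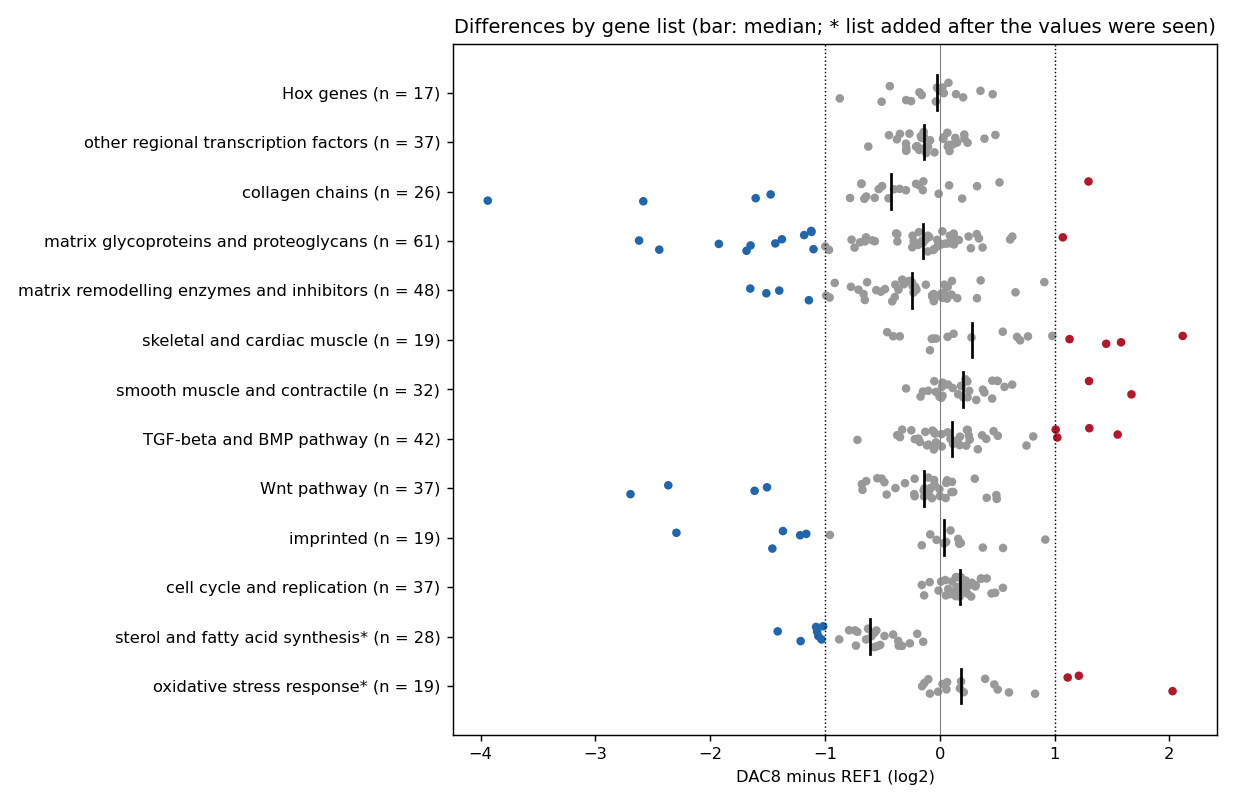
DAC8 minus REF1 differences (log2, horizontal axis) of the genes of 13 lists, 1 point per gene with the higher mean at 5 or above; the black bar is the list's median, red and blue points are the listed genes and dotted lines mark 2-fold. Collagen, matrix and Wnt genes extend to the left, muscle genes to the right, and the Hox and regional lists hold no listed gene; the lists with an asterisk were added after the values were seen.

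In the TGF-beta and BMP list 4 of 42 genes were listed as higher (0.774% over all genes) and 0 as lower (0.896%). Of the 42, 25 were above 0 and 17 below, with a median of 0.10. Noggin (Nog), a secreted BMP antagonist, differed by 1.30. Id1, a direct BMP target that inhibits basic helix-loop-helix factors, measured 10.22 and 10.29 in DAC8, against 9.25 and 9.22 in REF1, and Id4 differed by 1.01, although only by 0.48 with the mean of its probe sets. Gdf15, a distant member of the TGF-beta family that responds to cell stress, measured 7.37 and 7.39 in DAC8, against 5.79 and 5.87 in REF1. The ligand genes Bmp2 (0.51) and Bmp4 (-0.17) and the target Id3 (0.09) were not listed. Growth factors with a listed difference in other lists were Fgf10, a mesenchymal ligand for epithelial receptors, at 1.17, and Areg, a ligand of the EGF receptor, at 1.22. The list of FGF, hedgehog and IGF genes held 1 higher gene and 1 lower gene, Igf2, of 28; 2 were higher without REF1 replicate 1, 3 lower without DAC8 replicate 2 and 2 lower without REF1 replicate 2. The list of early response and ERK target genes held Areg as higher and Fos as lower of 27, and 2 were higher without DAC8 replicate 1, without DAC8 replicate 2 or without REF1 replicate 1.

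The single gene with the largest higher difference among those at 5 or above in both means was Hmox1, heme oxygenase 1, which breaks down heme and is induced by oxidative stress. It measured 9.44 and 9.42 in DAC8, against 7.50 and 7.30 in REF1, a 4.08-fold difference. Trpc6, a cation channel, measured 7.65 and 7.42 in DAC8, against 5.69 and 5.44 in REF1, and Rarres1, a membrane protein gene induced by retinoids, measured 10.24 and 10.24 in DAC8, against 8.49 and 8.24 in REF1. The 2 lines did not overlap for these 3 genes, which holds for every listed gene. Prl8a9, a gene of the rodent placental prolactin family, differed by 1.83, the neuronal calcium sensor gene Vsnl1 by 1.78 and Rasgrp2, an exchange factor for Rap proteins, by 1.67. A second, dim probe set of Rasgrp2, below 5 in both lines, differed by 0.35, and the mean of both gave 1.01. With REF1 below 5, Olr59 (an olfactory receptor gene), Esm1, Scg2, Gria2 and Lhfpl3 were listed with differences of 1.85 to 2.45, of which Gria2 stood at 1.28 with the mean of its probe sets. With DAC8 below 5, Fndc1, Gal, Ptn and Adh1c were listed with differences of -2.48 to -1.93, of which Adh1c stood at -1.18 with the mean of its probe sets. Among inflammatory mediators the alarmin Il33 measured 4.33 and 4.83 in DAC8, against 7.44 and 7.58 in REF1, and its second probe set differed by -3.50. Ptgs1, cyclooxygenase 1, was listed at -1.24 with DAC8 below 5, while a second probe set below 5 in both lines differed by 0.11 and the mean of both by -0.57. These 2 were the listed inflammatory genes of 18, against 0.896% of all genes listed as lower. The list as a whole did not go that way: 13 of the 18 were above 0 and 5 below, with a median of 0.19. Among interferon and antigen presentation genes 1 of 14 was listed, RT1-CE5, a class I histocompatibility gene, at 8.76 and 8.67 in DAC8 against 7.40 and 7.18 in REF1. Class I genes are a family of near-identical copies that differ between strains, so this value is uncertain, and the mean of its probe sets gave 0.88. Without DAC8 replicate 2 or REF1 replicate 1 the count for this list was 2. Over all genes 0.774% were listed as higher. The early response gene Fos measured 8.17 and 8.38 in DAC8, against 9.36 and 9.36 in REF1. It was not listed without DAC8 replicate 1, nor with the mean of its probe sets (-0.58).

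Sterol and fatty acid synthesis genes were grouped after the values were seen, so their count is a description. All 28 that reached 5 were lower in DAC8, with a median of -0.61 against 0.01 over all genes. Of them 7 were at least 2-fold lower, against 0.896% of all genes. Without REF1 replicate 1 the count was 4. Both DAC8 arrays lay below both REF1 arrays for all 28, against 28.9% of all genes. Stearoyl-CoA desaturase (Scd) measured 7.85 and 7.97 in DAC8, against 9.38 and 9.27 in REF1. The fatty acid desaturase gene Fads1 measured 8.28 and 8.40 in DAC8, against 9.57 and 9.53 in REF1. Lanosterol synthase (Lss) measured 8.56 and 8.50 in DAC8, against 9.64 and 9.58 in REF1, and was not listed with the mean of its probe sets (-0.96). In these 3 genes the 2 arrays of a line were close together, and the lines did not overlap, as in every listed gene. The other listed members were Acss2, which makes acetyl-CoA from acetate (-1.07), the sterol reductases Dhcr7 (-1.06) and Tm7sf2 (-1.03), and Insig1, which holds the sterol sensor complex in the endoplasmic reticulum (-1.02). Fdps (-0.79), Sqle (-0.55), Cyp51 (-0.55) and Fasn (-0.20) stayed under 2-fold. Many genes of this pathway are targets of the SREBP transcription factors, of which Srebf2 differed by -0.36.

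Promoters of the listed sterol genes are shown because the members moved together; promoters were matched for 119 of the 164 listed genes, and each stretch is 55 bases of the RefSeq GRCr8 promoter, written 5′ to 3′ on the strand of the gene, with the CCAAT box (CCAAT, or ATTGG where it lies on the opposite strand) in capitals.
Fads1: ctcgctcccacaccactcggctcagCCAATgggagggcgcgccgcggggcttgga
Lss: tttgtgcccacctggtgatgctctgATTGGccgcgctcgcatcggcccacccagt
Acss2: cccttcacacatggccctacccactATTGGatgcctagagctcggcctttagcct
Tm7sf2: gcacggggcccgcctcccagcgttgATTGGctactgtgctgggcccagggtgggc
Insig1: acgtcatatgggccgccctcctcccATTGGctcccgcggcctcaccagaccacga

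They lie at chr1:216252546-216252600 (plus strand) for Fads1, chr20:12118283-12118337 (minus) for Lss, chr3:164464605-164464659 (plus) for Acss2, chr1:212789601-212789655 (minus) for Tm7sf2 and chr4:8057933-8057987 (minus) for Insig1. Counted from the annotated start, the first base of the box stands at -121 in Fads1, -82 in Lss, -73 in Acss2, -89 in Tm7sf2 and -193 in Insig1. On both strands CCAAT was found in 5 of the 7 promoters and in 37.5% of all 33469 promoters. The sterol element searched as TCACNCCAC was found in 0 of 7 and in 1.12% of all promoters. A match is a run of letters and no match says nothing about the factor.

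Oxidative stress genes were also grouped after their values were seen. Of 19, 3 were listed as higher (Hmox1, Ephx1 and Pir) and 0 as lower, with a median of 0.19. Over all genes 0.774% were listed as higher and 0.896% as lower. Ephx1, microsomal epoxide hydrolase, measured 9.32 and 9.38 in DAC8, against 8.09 and 8.18 in REF1, and Pir, pirin, an iron-binding nuclear protein, measured 7.02 and 7.02 in DAC8, against 6.02 and 5.79 in REF1. The glutathione synthesis genes Gclc (0.83) and Gclm (0.60) and the quinone reductase gene Nqo1 (0.40) stayed under 2-fold. The promoters of Ephx1 and Pir are shown, as stretches of 59 bases written the same way, with the antioxidant element TGACNNNGC in capitals as it reads on the strand of the gene.
Ephx1: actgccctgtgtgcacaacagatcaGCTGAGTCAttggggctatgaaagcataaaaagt
Pir: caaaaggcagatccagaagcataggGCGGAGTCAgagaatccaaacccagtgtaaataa

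They lie at chr13:95263141-95263199 and chrX:33851130-33851188 in GRCr8, both on the minus strand. A second match in Pir, at -9 to -1, is not shown. The element was found in both promoters and in 12.1% of all promoters, so its presence in 2 promoters is a description only. The promoter of Hmox1 was not searched.

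Another group made after the values were seen was serine synthesis and the amino acid response, with a median of 0.32. It held 2 of 20 listed as higher (0.774% over all genes) and 0 as lower (0.896%). These were Gdf15 and Phgdh, the first enzyme of serine synthesis, which measured 9.96 and 9.90 in DAC8, against 8.80 and 8.73 in REF1.

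Regional identity did not separate the lines at 2-fold. Of 22 Hox genes measured, 17 reached 5 and 0 were listed in either direction, with a median difference of -0.02. Hoxa10, a posterior gene, measured 8.79 and 8.87 in DAC8, against 8.80 and 8.86 in REF1, and Hoxd10 measured 9.10 and 9.18 in DAC8, against 8.99 and 8.89 in REF1. The widest differences were Hoxa7, at 6.65 and 6.84 in DAC8 against 7.68 and 7.55 in REF1, and Hoxc8, at 0.46. The same 17 Hox genes reached 5 in both lines, so the 2 cultures shared the set. Of 37 other regional transcription factors, such as Prrx1, Pitx1, Tbx and Zic genes, 0 were listed, with a median of -0.13 and a range of -0.62 to 0.49. With the mean of probe sets 1 of these was listed as lower.

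Sex chromosome genes were also shared, with 0 of 6 listed. Xist, the RNA that silences an X chromosome, measured 10.23 and 10.29 in DAC8, against 10.48 and 10.40 in REF1. The Y-linked gene Eif2s3y measured 9.02 and 8.93 in DAC8, against 8.86 and 8.95 in REF1. DAC8 and REF1 were the only lines with both genes at 5 or above: Xist averaged 2.81 in DAC2, 4.95 in REF2, 2.34 in A1 and 2.40 in A2, and Eif2s3y averaged 2.52 in DAC2, 10.70 in REF2, 10.45 in A1 and 10.43 in A2.

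**Figure D4:**
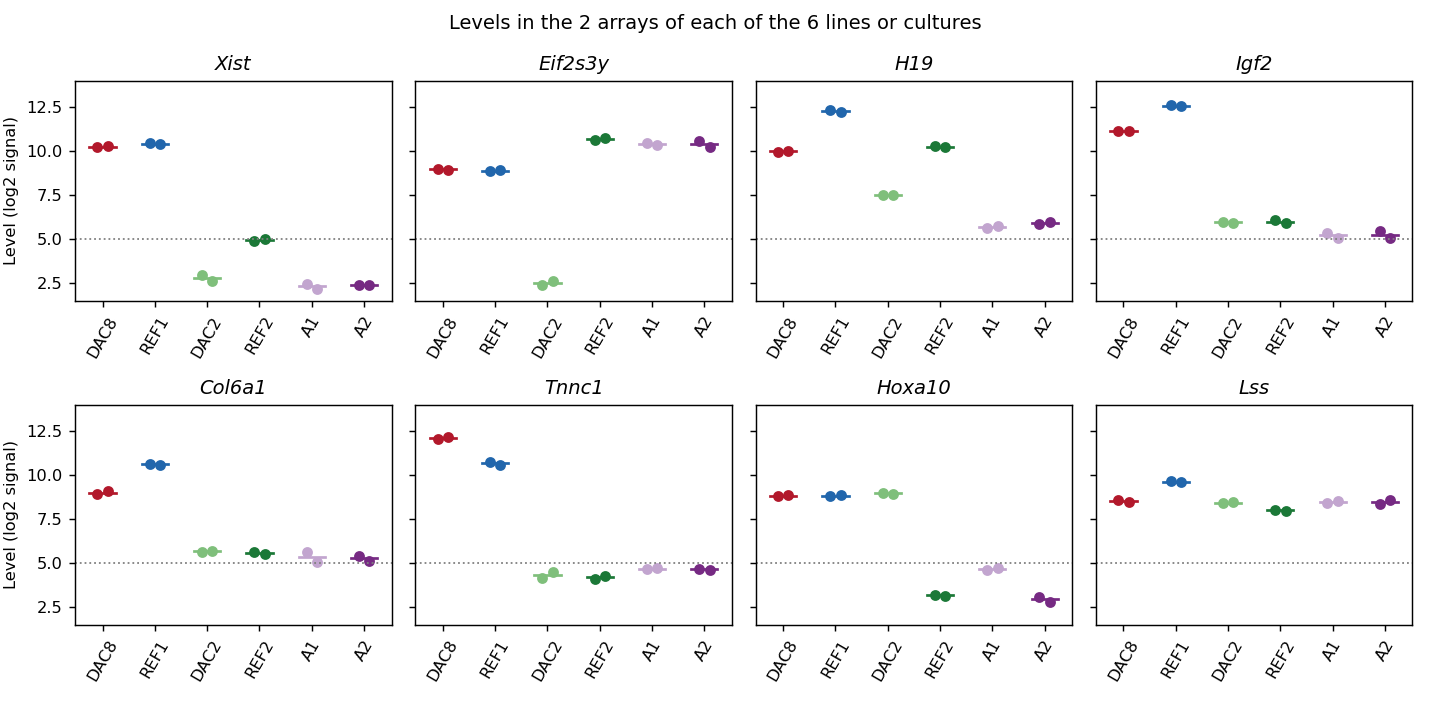
Log2 signal of 8 genes in both arrays of each of the 6 lines or cultures (points), with line means (short lines) and the level of 5 (dotted). DAC8 and REF1 are the only lines high for both Xist and Eif2s3y, and they share the level of Hoxa10, while H19, Igf2, Col6a1, Tnnc1 and Lss differ between them.

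Cell cycle genes showed no listed difference: 0 of 37 in either direction, with a median of 0.17 and a range of -0.16 to 0.55. Of them 33 were above 0 and 4 below. Both DAC8 arrays were above both REF1 arrays for 28, against 34.0% of all genes. CDK inhibitors and p53 targets held 0 higher and 1 lower of 19, the Cdkn1c already named, with a median of 0.23, and Cdkn1a differed by 0.46. Adipogenic genes held 0 higher and 2 lower of 10, Scd and Dlk1, with a median of -0.15. Over all genes 0.774% were listed as higher and 0.896% as lower. Of 12 pluripotent cell markers, 5 in DAC8 and 6 in REF1 reached 5, and their summed log2 levels were 65.1 to 65.6 in DAC8 and 61.5 to 64.6 in REF1. Klf4, a factor shared by pluripotent cells and fibroblasts, was the only one listed, at 8.69 and 8.74 in DAC8 against 7.65 and 7.64 in REF1. Of 15 epithelial markers 4 reached 5 in DAC8 and 5 in REF1, with summed levels of 67.0 to 68.6 in DAC8 and 68.2 to 68.2 in REF1. The keratin gene Krt19, the only listed gene of 5 epithelial and of 3 mesothelial markers at 5 or above, was listed at 1.08 but not without DAC8 replicate 1, while Epcam and Cdh1 lay below 5. Neural, neural crest, endothelial and blood markers held 0 listed genes in either direction among 10, 6, 3 and 7 that reached 5, and 1 endothelial marker was listed as lower without REF1 replicate 2. The part of other cell types in the listed differences was not tested.

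The 8 arrays of the other lines were not used to choose these genes by their difference, although they entered the choice of probe set. Of the 164 genes, 67 lay below 5 in all 8 of them, 32 of the 76 higher and 35 of the 88 lower ones, among them Trpc6, Myocd, Tnnc1, Cryab, Lum, Wif1, Thbs2 and Eln. The share over all genes was not computed, so nothing about the list is read from this count. Other probe sets existed for 50 listed genes. For 44 of these all other probe sets had the same sign, and for 20 at least 1 other also differed 2-fold.

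DAC2 against REF2 carried the same pair of labels, an ES line and a fibroblast culture, on arrays the rule did not use. In limma's fit of all lines with Benjamini-Hochberg adjustment, 65 of the 164 listed genes (39.6%) differed at an adjusted p under 0.05, against 45.7% of all 11001 genes. Of the 76 genes higher in DAC8, 16 were called higher in DAC2 (21.1%), against 20.9% of all genes, and 14 were called lower. Of the 88 genes lower in DAC8, 24 were called lower in DAC2 (27.3%), against 24.8% of all genes, and 11 were called higher. These shares are near those of all genes, but the listed genes and all genes differ in level here. For 92 of the 164 genes both the DAC2 and the REF2 mean lay below 5. At least 1 of these means was at 5 or above for 9759 of the 11001 genes. Of the 72 listed genes with such a mean, 50 were called, 33 in the same direction and 17 in the opposite one. The share among all genes at that level was not computed, so nothing about the list as a whole is read from these counts. The correlation of the 2 differences across the 164 genes was 0.06, given as a description.

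Single genes called in the same direction are given as examples. H19 fell in DAC2, at 7.54 and 7.54 in DAC2 against 10.28 and 10.23 in REF2, a difference of -2.72 ± 0.07 (SE, n = 2 each, limma adjusted p = 3.60e-08). Fos differed by -4.60 ± 0.08 (limma adjusted p = 2.07e-09), with DAC2 below 5, so its size is a lower bound. The matrix gene Fbln2 fell by 1.42 ± 0.13 (limma adjusted p = 4.11e-05), and Col6a3, with DAC2 below 5, differed by -1.08 ± 0.25 (limma adjusted p = 0.00734). Pir rose by 1.12 ± 0.08 in DAC2 (limma adjusted p = 8.55e-06) and RT1-CE5 by 0.81 ± 0.09 (limma adjusted p = 0.000126). Klf4 rose by 0.49 ± 0.06 (limma adjusted p = 0.00019). H19, Fos, Fbln2 and Col6a3 were lower, and Pir, RT1-CE5 and Klf4 higher, in DAC8 than REF1 and in DAC2 than REF2. They were picked from 40 listed genes called in the same direction, while 25 were called in the opposite one. The labels of DAC8 and REF2 went against their values, so nothing about the ES label is read from these genes.

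Others went the opposite way. Reln measured 6.38 and 6.15 in DAC2, against 4.99 and 4.91 in REF2, a rise of 1.31 ± 0.16 (limma adjusted p = 0.000223). Ptgs1 rose by 1.76 ± 0.08 in DAC2 (limma adjusted p = 1.13e-06). Hmox1, higher in DAC8, fell by 0.59 ± 0.08 in DAC2 (limma adjusted p = 0.000301), Krt19 fell by 0.98 ± 0.16 (limma adjusted p = 0.00132), and Cdkn1c rose by 0.93 ± 0.11 (limma adjusted p = 0.000195). Igf2 differed by -0.04 ± 0.14 (limma adjusted p = 0.829), Col6a1 by 0.07 ± 0.17 (limma adjusted p = 0.778) and Tnnc1 by 0.13 ± 0.12 (limma adjusted p = 0.4), the last below 5 in both lines.

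**Figure D5:**
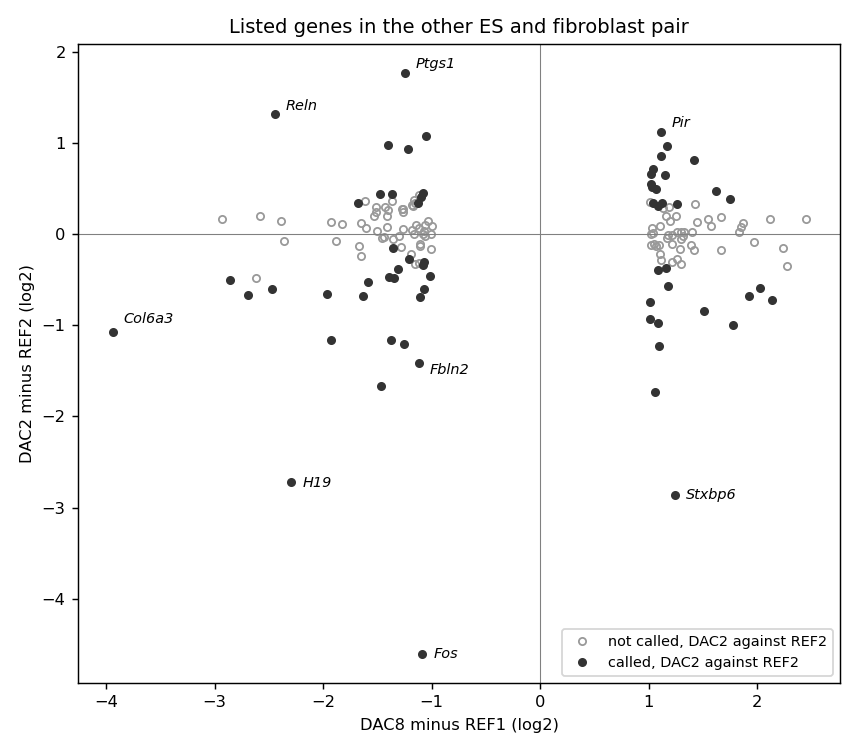
DAC2 minus REF2 differences (log2, vertical axis) against DAC8 minus REF1 differences (log2, horizontal axis) of the 164 listed genes; filled points are the 65 that limma called between DAC2 and REF2. Called genes lie on both sides of 0 in both directions, with H19, Fos and Col6a3 lower in both pairs and Reln and Ptgs1 on opposite sides.

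Probe sets for which the platform annotation listed no gene, array controls aside, were read by the same rule. The 436 with several genes were not read. Of 3582 probe sets with no gene and the higher mean at 5 or above, 20 were higher and 39 lower in DAC8. Together they were 1.65%, near the 1.67% of named genes.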

How the data were processed

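Total RNA was measured on 12 arrays, 2 for each of 6 lines or cultures. The authors deposited 1 log2 signal for each of 31099 probe sets per array. The submitters' processing notes name RMA, which compresses differences of dim genes, and Partek 6.2. How many arrays were normalized at once is not stated in the labels. No further normalization was applied. Gene names came from the platform annotation (20832 with 1 gene, 436 with several, 9831 not listed, 57 array controls), and 20764 matched the GRCr8 gene table. The brightest probe set stood for each of 14218 genes, 4526 of which had several.

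Lines were compared with limma 3.58.1 (R 4.3.3), 6 lines as the factor, on 11001 genes with a line mean of at least 5. On simulated data of 11003 genes, 64%, 94%, 100% and 100% of changes of 0.5, 1, 2 and 4 log2 units between DAC8 and REF1 were recovered, and 4.28% of 187 calls were false. No array was left out. The number of arrays limits the precision.

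The listed genes and 27 gene lists were chosen with earlier results of these data known, and 3 more lists after the values were seen. Named were the 8 largest differences per direction with both means at 5 or above, the 8 with a lower mean below 5, up to 4 listed members of each list, and the 3 genes nearest each side of the threshold; other genes were chosen after their values were seen. Alternatives were other normalizations, filters, probe set rules, fits and left-out arrays.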

Additional observations from a re-analysis of the deposited data

Results flagged for a closer look

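Every DAC8 array lay below every REF1 array for Reln while every DAC2 array lay above every REF2 array. The differences were -2.44 for DAC8 minus REF1 and 1.31 for DAC2 minus REF2. Ptgs1 had the same pattern, with -1.24 for DAC8 minus REF1 and 1.76 for DAC2 minus REF2, where DAC8 lay below 5. The difference between the 2 pairs was not tested for either gene. With the mean of its probe sets Ptgs1 differed by -0.57 between DAC8 and REF1.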

How the results depend on the processing

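The count of listed genes was 64 to 84 on the higher side and 65 to 109 on the lower side over the alternatives, against 76 and 88, and 102 and 110 probe sets met the rule where each was counted by itself. Leaving out single arrays gave 67 to 84 and 82 to 109. The limma count between DAC8 and REF1 was 1246 to 1453 when 1 array of either line was left out, with 1246 without DAC8 replicate 1, 1323 without REF1 replicate 2 and 1378 without DAC8 replicate 2, against 2174. Among the listed genes the count for DAC2 against REF2 was 49 to 68, against 65. With the mean of probe sets, 17 named differences moved by more than the spread between arrays, including Igf2 at -0.38, Col6a3 at -2.14, Pln at 0.91, RT1-CE5 at 0.88 and Fos at -0.58. The labels tie no number to a shared batch or culture. Deviations of same-numbered arrays correlated at 0.01 for DAC8 and REF1, 0.24 for DAC2 and REF2, 0.18 for A1 and A2 and 0.14 for REF1 and REF2, and between -0.08 and 0.09 for the other pairs of lines, so they were not treated as paired. With a replicate block limma called 2185 genes between DAC8 and REF1 and 64 listed genes between DAC2 and REF2. Without REF1 replicate 1, 4 sterol genes were listed as lower, against 7. The cause of these changes was not tested.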
